A study of Mus musculus with 191 samples.

Results

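The genes of heme synthesis and breakdown were followed in liver and in 3 brain regions of mice after ethanol vapor. All probes annotated to Alas1, Alad, Uros, Urod, Cpox, Fech, Hmox1 or Blvrb on Illumina MouseRef-8 v2 arrays were taken, which gave 10 probes for 7 of the 8 genes out of 13798 probes with 1 gene symbol (10004 genes). Hmox1 had no annotated probe and was not analysed here. Uros had 2 probes (ILMN_2452383 and ILMN_2498173), Fech had 3 (ILMN_1228534, ILMN_1229519 and ILMN_2710731), and Alas1 (ILMN_2664040), Alad (ILMN_2655015), Urod (ILMN_2453695), Cpox (ILMN_2972755) and Blvrb (ILMN_2792868) had 1 each.

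Male C57BL/6J mice, adults of 10 to 12 weeks, went through 4 cycles of chronic intermittent ethanol (CIE) vapor, each of 4 days with 16 h in vapor and 8 h in air. Treated mice were given ethanol (1.6 g/kg) with pyrazole (1 mmol/kg), an inhibitor of alcohol dehydrogenase, before each session. Control mice were given saline with the same dose of pyrazole and breathed air, so that pyrazole was common to all groups. RNA from liver and from micropunches of amygdala (AMY), nucleus accumbens (NAC) and prefrontal cortex (PFC) was taken at 0, 8 and 120 h after the last session, on 1 array per mouse and tissue, with 8 arrays per group except for 7 in the liver control group at 0 h (191 arrays). A punch is a mixed tissue sample. In such bulk RNA a lower signal from fewer cells of a type and one from less RNA per cell cannot be told apart.

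Heme is an iron-holding ring that cytochromes, catalase and the oxygen carriers need. Its synthesis opens in the mitochondrion with 5-aminolevulinate synthase (Alas1 in most tissues, Alas2 in red cell precursors), the rate-limiting step in liver, which heme itself represses. Alad joins aminolevulinate into the pyrrole porphobilinogen, Uros forms the ring of uroporphyrinogen III, Urod and Cpox trim its side chains, Ppox oxidises it, and Fech inserts the iron. Heme oxygenases (the inducible Hmox1 and the constitutive Hmox2) open the ring to biliverdin, which the biliverdin reductases Blvra and Blvrb reduce, and Blvrb is also a general flavin reductase. Liver is a large user of heme because its cytochromes P450 turn over and are induced by drugs, and loss of function in the pathway enzymes causes the porphyrias.

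Promoter windows are printed for Alas1, Alad, Uros and Cpox, which were lower in treated liver, and for Blvrb, which moved most over time in control liver, so that the starts of enzymes that were low together can be set side by side. Each window runs from 250 bases before to 50 bases after an annotated start, is written 5′ to 3′ on the gene's strand and comes from RefSeq (GRCm38.p6, with 10 windows for 6 of the 8 genes matched, Fech not among them). Capitals mark motifs found on either strand. These were the half-site of NRF1 (GCGCATG, in 3.91% of 32851 windows of the same table), the E-box (CACGTG, 7.15%), GATA (GATAA, 25.4%) and the GC box (GGGCGG, 35.7%).
Alas1 start 2 (chr9:106247681-106247980, minus strand): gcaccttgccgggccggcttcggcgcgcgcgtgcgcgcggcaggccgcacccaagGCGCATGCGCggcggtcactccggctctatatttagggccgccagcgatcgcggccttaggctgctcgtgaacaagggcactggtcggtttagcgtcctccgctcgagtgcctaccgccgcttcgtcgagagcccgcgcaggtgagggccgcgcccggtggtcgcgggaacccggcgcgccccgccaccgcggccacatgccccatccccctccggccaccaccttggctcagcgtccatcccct
Alad start 2 (chr4:62519860-62520159, minus strand): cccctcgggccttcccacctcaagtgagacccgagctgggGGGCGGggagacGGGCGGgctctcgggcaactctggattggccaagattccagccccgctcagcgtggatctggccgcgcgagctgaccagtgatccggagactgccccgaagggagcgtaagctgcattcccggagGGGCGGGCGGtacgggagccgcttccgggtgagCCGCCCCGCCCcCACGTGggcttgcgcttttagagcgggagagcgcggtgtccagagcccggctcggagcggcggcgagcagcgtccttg
Uros start 1 (chr7:133709246-133709545, minus strand): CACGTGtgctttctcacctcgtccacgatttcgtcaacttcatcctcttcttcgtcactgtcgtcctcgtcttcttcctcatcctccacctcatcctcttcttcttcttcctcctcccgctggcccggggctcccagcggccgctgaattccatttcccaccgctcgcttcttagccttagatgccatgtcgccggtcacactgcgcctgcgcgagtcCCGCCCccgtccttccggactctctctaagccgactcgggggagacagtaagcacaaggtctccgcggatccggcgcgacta
Uros start 2 (chr7:133702451-133702750, minus strand): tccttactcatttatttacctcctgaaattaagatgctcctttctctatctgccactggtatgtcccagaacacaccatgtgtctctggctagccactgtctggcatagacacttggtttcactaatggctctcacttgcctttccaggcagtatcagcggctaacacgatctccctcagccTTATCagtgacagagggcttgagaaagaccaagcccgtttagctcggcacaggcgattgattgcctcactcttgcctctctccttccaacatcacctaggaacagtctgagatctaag
Cpox start 1 (chr16:58669958-58670257, plus strand): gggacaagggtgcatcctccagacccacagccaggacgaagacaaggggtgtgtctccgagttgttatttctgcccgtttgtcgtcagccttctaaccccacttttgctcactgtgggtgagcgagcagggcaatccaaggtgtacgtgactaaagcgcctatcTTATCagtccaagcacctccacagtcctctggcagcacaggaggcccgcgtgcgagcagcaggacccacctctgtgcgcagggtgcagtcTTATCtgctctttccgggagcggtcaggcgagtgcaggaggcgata
Blvrb start 1 (chr7:27447728-27448027, plus strand): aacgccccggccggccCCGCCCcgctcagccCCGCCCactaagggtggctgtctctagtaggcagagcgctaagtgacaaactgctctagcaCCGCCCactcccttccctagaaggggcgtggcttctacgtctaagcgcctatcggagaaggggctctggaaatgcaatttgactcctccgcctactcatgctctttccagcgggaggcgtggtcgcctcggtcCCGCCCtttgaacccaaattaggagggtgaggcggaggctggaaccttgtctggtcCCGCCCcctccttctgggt

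The Alas1 window held the NRF1 half-site on both strands, as a palindrome that begins 195 bases before the start. Alad held an E-box 28 bases before the start and 6 GC boxes, of which several overlapped. Uros had an upstream start with an E-box 250 bases and a GC box 32 bases before it and an internal start with 1 GATA motif, and Cpox carried 2 GATA motifs. Blvrb held 5 GC boxes. The window of Urod, which was not called in treated liver, is not printed. It held an E-box 49 bases before the start and GC boxes at positions -28, -4 and 17. The E-box and the GC box were therefore not particular to the enzymes that were low. The antioxidant response element (TGACNNNGC, in 12.4% of all windows) was in none of the 10 windows. A motif match is a run of letters and was not tested as a site. In the same annotation Alad spans chr4:62505984-62520063, Blvrb chr7:27447978-27465981 and Uros chr7:133686142-133710467, where the neighbouring gene Bccip overlaps it by 1135 bases at the end that holds the upstream start.

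Values below are normalised intensities, in array units that compare 1 probe between samples and not 1 probe with another. A probe was kept where it was detected on more than 80% of a tissue's arrays, which left 10 member probes in liver, 9 in AMY, 8 in NAC (without Cpox) and 9 in PFC. Groups were compared with limma, and a probe was called at a Benjamini-Hochberg adjusted p of 0.05 or lower over all probes of the tissue. No background was subtracted, so fold changes of dim probes such as those of Uros, Cpox and Fech are compressed. Detected probes ranged from 11297 to 14833 per array, the lowest correlation between any pair of arrays was 0.944 in liver and 0.982 in the brain regions, and no array was left out. As a partial check of the tissue labels, the neuronal markers Stmn2 and Slc17a7 were detected on no liver array. Albumin (Alb) was detected on no brain array, but its probe was dim in liver too (111.1 to 146.5 in controls at 0 h). Its absence from brain therefore says little. Other listed markers were not confined to their tissue, since Syt1 and Rbfox3 were kept in liver and the hepatocyte marker Ass1 in every brain region.

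At the end of the last session, 3 of the 7 measured genes were lower in treated than in control liver and none was higher. They were Alad, Uros (both probes) and Cpox, each acting between the first step and the closing steps of the pathway. These were 4 of 10 member probes, where 11.7% of all liver probes were lower and 20.4% were called in either direction. The median difference of the members was -0.22 on the log2 scale, against 0.0042 over all probes.

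Uros probe ILMN_2452383 read 149 to 194 in treated livers (median 178, n = 8) and 224 to 274 in control livers (median 253, n = 7). The second Uros probe, ILMN_2498173, read 131.5 to 162.8 in treated livers (median 149) and 188 to 198.9 in control livers (median 194.3). On both probes every treated liver lay below every control liver. The log2 fold changes were -0.52 ± 0.0636 (SE, adjusted p = 1.04e-04) and -0.38 ± 0.0417 (adjusted p = 5.28e-05). With normexp background correction, which widens differences of dim probes, they became -0.85 and -0.73. The probe of Bccip, the overlapping neighbour, differed by 0.07 ± 0.0662 (adjusted p = 0.470).

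Alad read 1344 to 2918 in treated livers (median 2023) and 2731 to 3316 in control livers (median 2976). Of the treated livers, 6 of 8 were below the lowest control and the remainder reached into the control range, so that the treated group was the more spread (SD 0.431 against 0.0941 on the log2 scale). The log2 fold change was -0.56 ± 0.156 (adjusted p = 0.0216), and the signal fell by 32%. Hdhd3, a neighbour 3783 bases from Alad, was lower too, at 0 h (-0.78, adjusted p = 7.61e-04) and 8 h (-0.71, adjusted p = 1.91e-06). Both probes of Pole3, 3734 bases from Alad, differed little at 0 h (0.04 and -0.04, adjusted p = 0.63 for each). A link between the Hdhd3 and Alad differences was not tested. Cpox, coproporphyrinogen oxidase of the mitochondrial intermembrane space, read 118.4 to 170.5 in treated livers (median 143.9) and 158.8 to 191.4 in control livers (median 164.5). Here 7 of 8 treated livers were below the lowest control, and the log2 fold change was -0.25 ± 0.0666 (adjusted p = 0.018, and -0.53 with normexp background correction). The calls of Alad and Cpox were each lost under 2 of 24 alternative settings, those with a replicate block (adjusted p up to 0.0601 and 0.0619).

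Alas1 itself read 8603 to 14170 in treated livers (median 12030) and 9773 to 18040 in control livers (median 13260), and these ranges overlapped widely. Its log2 difference of -0.27 ± 0.141 did not pass (adjusted p = 0.192). Blvrb differed by -0.19 ± 0.107 (adjusted p = 0.226), with treated livers at 3781 to 6424 and control livers at 4366 to 5691. Urod, which decarboxylates uroporphyrinogen, differed by 0.02 ± 0.0742 (adjusted p = 0.867). The 3 Fech probes differed by -0.01 to 0.04, and the widest of their 95% intervals ran from -0.15 to 0.14 (ILMN_1228534).

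At 8 h of withdrawal 3 genes were lower in treated liver. They were Alad, Uros (both probes) and now Alas1, while Cpox was no longer among them. These were again 4 of 10 member probes, where 16.4% of all liver probes were lower and 30.9% were called. The median over the member probes was -0.02, close to the 0.0024 of all probes.

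Alad read 2061 to 2697 in treated livers (median 2442) and 3221 to 3851 in control livers (median 3454), with no overlap. Its log2 fold change was -0.53 ± 0.053 (adjusted p = 2.69e-06), and the spread of the treated group (SD 0.131) was smaller than at 0 h. Uros read 193.1 to 235.6 in treated livers (median 212.7) and 223.1 to 265.5 in control livers (median 254) on ILMN_2452383, with 7 of 8 treated livers below the lowest control (log2 fold change -0.26 ± 0.044, adjusted p = 3.63e-04). On ILMN_2498173 it read 154.1 to 183.2 in treated livers and 150.3 to 198 in control livers (-0.15 ± 0.0518, adjusted p = 0.0348), where a single control array at 150.3 lay below all others of both groups. That call was lost when any of 10 of the 16 arrays was left out (4 treated and 6 control arrays, adjusted p up to 0.0678). Counting these, it was lost under 13 of 25 alternative settings.

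Alas1 read 7044 to 11950 in treated livers (median 9524) and 10160 to 13440 in control livers (median 11570) at 8 h. In treated livers, 4 of 8 were below the lowest control and the others lay within the control range. The log2 fold change of -0.31 ± 0.107 passed the threshold (adjusted p = 0.0348), but it was lost when any of 8 of the 16 arrays was left out (4 treated and 4 control arrays, adjusted p up to 0.0682). Counting these, the call was lost under 13 of 25 alternative settings, with adjusted p up to 0.271 and the smallest log2 fold change at -0.17. Cpox differed by 0.06 ± 0.0606 (adjusted p = 0.443), Blvrb by 0.12 ± 0.104 (adjusted p = 0.402) and Urod by -0.05 ± 0.0411 (adjusted p = 0.422). The Fech probe ILMN_2710731 read above the control median in 8 of 8 treated livers, with a log2 difference of 0.10 ± 0.0382 that did not pass (adjusted p = 0.0685).

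**Figure D1:**
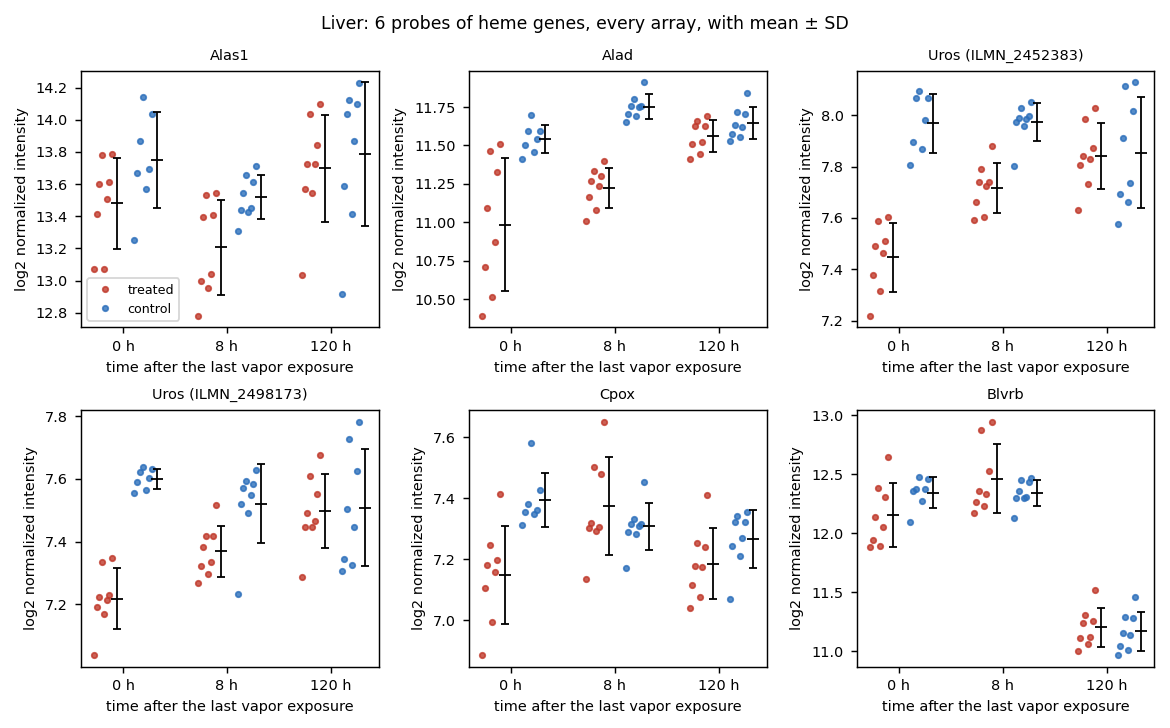
Log2 normalised intensity of 6 probes in liver (y axis) against hours after the last session (x axis), with treated livers in red left of control livers in blue, 1 point per array and mean ± SD beside each group. Uros at 0 h and Alad at 8 h show no overlap between treated and control livers, and all 6 probes overlap at 120 h, when Blvrb is low in both groups.

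At 120 h no member was called in any tissue, and no probe at all was called in any tissue (0%), by limma. At an unadjusted p under 0.05, the member probes that differed were 1 of 9 for AMY, 0 of 8 for NAC, 1 of 9 for PFC and 0 of 10 for liver, where 3.05%, 4.57%, 3.41% and 8.31% of all probes did. In liver, Alad read 2731 to 3308 in treated mice and 2954 to 3670 in control mice (log2 difference -0.08, 95% interval -0.19 to 0.02). Uros probe ILMN_2452383 differed by -0.01 with an interval of -0.18 to 0.16. Alas1 was the most spread of the members, at 8375 to 17560 in treated livers and 7747 to 19200 in control livers, with an interval of -0.46 to 0.28.

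The change of the liver effect over time was tested as such, in a fit of all 6 liver groups. From 0 to 120 h the effect moved up by 0.51 ± 0.0958 (adjusted p = 2.5e-04) and 0.37 ± 0.0839 (adjusted p = 0.00212) on the Uros probes and by 0.47 ± 0.142 (adjusted p = 0.0195) for Alad, that is, toward 0. These were 3 of 10 member probes, where 15.4% of all liver probes were called. The Alad effect also moved by 0.44 ± 0.139 between 8 and 120 h (adjusted p = 0.0241, 1 of 10 member probes, background 15%). Between 0 and 8 h the Cpox effect alone passed among the members, at 0.31 ± 0.0864 (adjusted p = 0.0245, 1 of 10, background 4.92%). The Uros effects differed by 0.27 ± 0.0958 (adjusted p = 0.0971) and 0.23 ± 0.0839 (adjusted p = 0.104) and that of Blvrb by 0.31 ± 0.143 (adjusted p = 0.228).

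**Figure D2:**
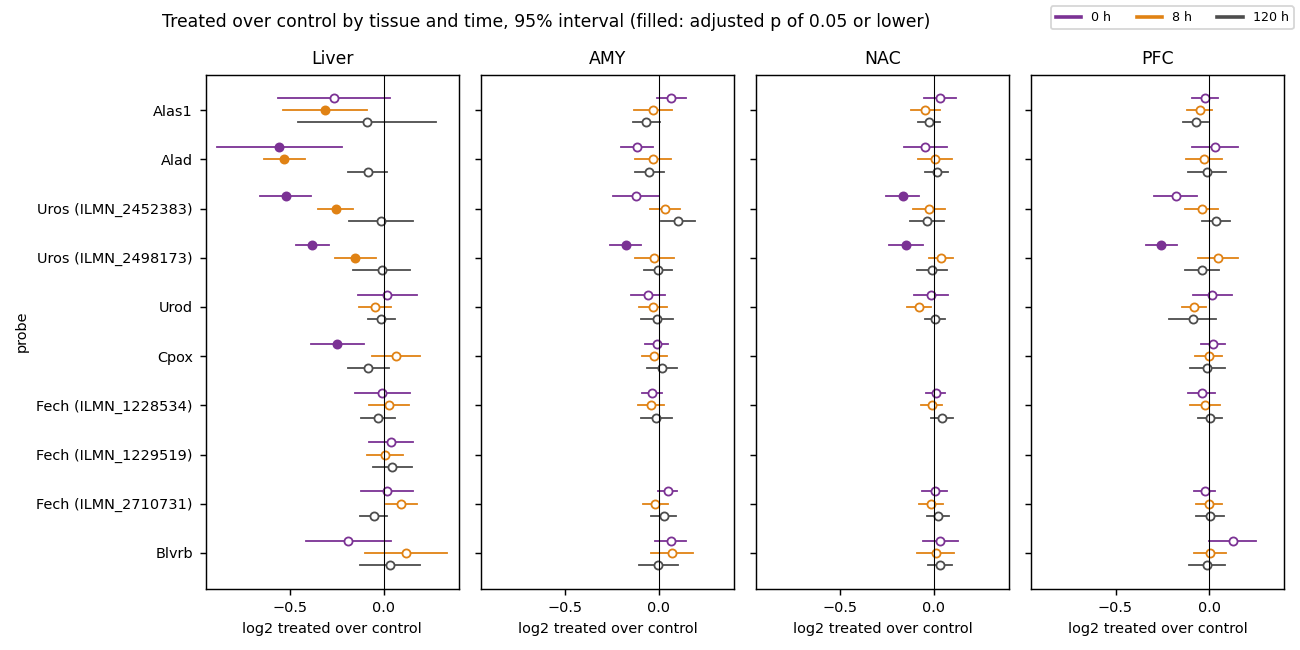
Log2 treated over control (x axis) of each member probe (y axis) in liver, AMY, NAC and PFC at 0 h (purple), 8 h (orange) and 120 h (grey), with 95% intervals, where filled points have an adjusted p of 0.05 or lower. Filled points lie left of 0 in all cases, for Alad, Uros, Cpox and Alas1 in liver and for Uros alone in the brain regions at 0 h.

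In the brain regions Uros was the only member called, and it was lower in treated mice in all 3 regions at 0 h. Its probes were 1 of the 9 members for AMY (3.88% of all AMY probes called, 2.22% lower), 2 of the 8 for NAC (7.3% called, 3.84% lower) and 1 of the 9 for PFC (1.48% called, 0.717% lower). In PFC probe ILMN_2498173 read 195 to 234 in treated mice (median 224) and 233 to 280 in control mice (median 265). Of the treated PFC samples, 7 of 8 were below the lowest control. The log2 fold change was -0.25 ± 0.0405 (adjusted p = 0.00634), and the probe was 13th of 12835 when ranked by p. The second probe differed by -0.18 ± 0.0536 there and did not pass (adjusted p = 0.0877), although 8 of 8 treated samples were below the control median.

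In AMY ILMN_2498173 read 193 to 247.2 in treated mice (median 221) and 233.2 to 255.9 in control mice (median 251.1), again with 7 of 8 treated samples below the lowest control (log2 fold change -0.18 ± 0.0394, adjusted p = 0.0166). The other Uros probe differed by -0.12 ± 0.0583 in AMY (adjusted p = 0.253). In NAC both probes passed, with 199.1 to 237.4 in treated mice and 211.1 to 259.7 in control mice on ILMN_2452383 (-0.17 ± 0.0433, adjusted p = 0.0237). On ILMN_2498173 the NAC values were 171.4 to 218.1 in treated mice and 205.9 to 228.4 in control mice (-0.15 ± 0.0435, adjusted p = 0.0432). The last of these calls was lost under 5 of 10 alternative settings (adjusted p up to 0.07). The groups overlapped in every region, and on the called probes the Uros signal fell by 9.8% to 16.2%.

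At 8 h no member was called in the brain regions, where 2.88% (AMY), 6.94% (NAC) and 5.72% (PFC) of all probes were. At an unadjusted p under 0.05 there were 0 of 9, 1 of 8 and 1 of 9 member probes (15.8%, 22.4% and 20.6% of all probes), and the NAC and PFC probes were those of Urod, each at -0.08 (adjusted p = 0.133 and 0.126). Uros in PFC read 219 to 289.3 in treated mice and 217.3 to 266.5 in control mice on ILMN_2498173. Its effect there moved by 0.30 ± 0.0649 between 0 and 8 h (adjusted p = 0.00384, 1 of 9 member probes, background 3.83%). In AMY and NAC 0 member probes passed this test of time by limma (0.524% and 2.46% of all probes), and 2 of 9 and 2 of 8 had an unadjusted p under 0.05, where 11.2% and 16% of all probes did. For the effect at 120 against 0 h 0 member probes passed in AMY, NAC and PFC by limma (1.46%, 1.99% and 0.623% of all probes), and 3 of 9, 2 of 8 and 2 of 9 had an unadjusted p under 0.05 (14.3%, 15.3% and 13% of all probes). For 120 against 8 h 0 passed (0.445%, 1.25% and 0.834% of all probes), with 0 at an unadjusted p under 0.05 in each region (10.1%, 13.1% and 11.4% of all probes).

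**Figure D3:**
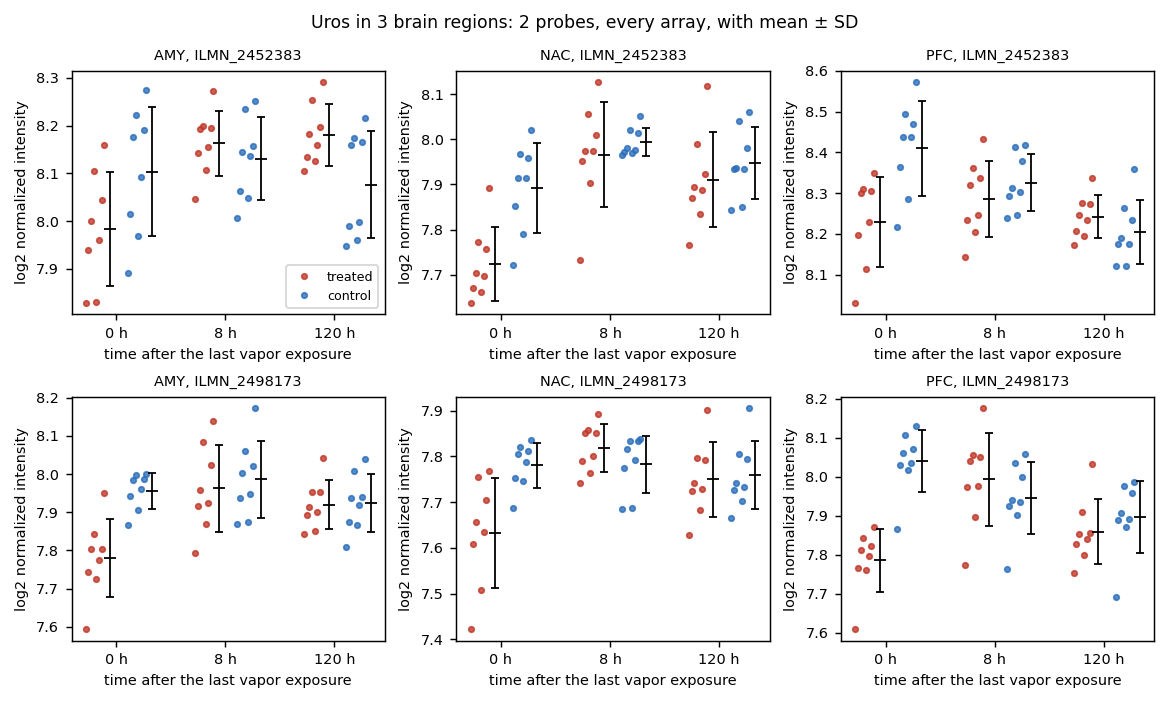
Log2 normalised intensity of the 2 Uros probes (y axis, 1 row each) in AMY, NAC and PFC against hours after the last session (x axis), with treated mice in red left of control mice in blue, 1 point per array and mean ± SD. Treated mice sit low at 0 h, most clearly for ILMN_2498173 in PFC with treated values of 195 to 234 against control values of 233 to 280, and the groups overlap at 8 and 120 h.

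Whether liver differed from brain in its response was tested directly, on all 4 tissues normalised together. At 0 h 5 of 10 member probes had a more negative effect in liver than in each of AMY, NAC and PFC (21.2%, 23.6% and 21.8% of all probes called). The liver effect minus the AMY, NAC and PFC effect, in this order and on the log2 scale, was -0.42, -0.38 and -0.36 for Uros ILMN_2452383, -0.33, -0.41 and -0.49 for Alad, and -0.28, -0.30 and -0.31 for Cpox. The remaining calls at 0 h were the second Uros probe against all 3 regions, Alas1 against AMY and NAC, and Blvrb against PFC. At 8 h 3, 4 and 3 of the 10 probes were called (backgrounds 22.3%, 24.2% and 24.6%). Alad again had the more negative effect in liver (-0.40 against AMY, -0.44 against NAC and -0.40 against PFC), and Fech ILMN_2710731 the more positive one by 0.13 against AMY and 0.12 against NAC. These Fech calls were lost under 3 of 4 alternative settings (adjusted p up to 0.127 for AMY and 0.143 for NAC). With median scaling the 0 h calls of Alas1 against AMY and NAC were lost too (adjusted p up to 0.072 and 0.113). The 0 h call of the second Uros probe against PFC was lost under 2 of 4 alternative settings, median scaling among them (adjusted p up to 0.225).

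Other genes around heme were counted by list in liver, where 20.4% of all probes were called at 0 h and 30.9% at 8 h. Of 8 other synthesis genes measured, 4 were lower and 1 higher in treated livers at 0 h (median -0.27, against 0.0042 over all probes), and 4 were lower and 3 higher at 8 h (median -0.17). Alas2, the red cell synthase, had a median of 170 in treated and 561 in control livers at 0 h (log2 fold change -1.49, adjusted p = 0.00189) and was also lower at 8 h (-1.35, adjusted p = 6.34e-05). Ppox, the oxidase between Cpox and Fech, was lower at 0 h (-0.33) and 8 h (-0.39), with adjusted p = 3.63e-04 and 1.88e-04. Abcb10, a transporter of the inner mitochondrial membrane, was lower as well (-0.26, adjusted p = 0.0154, and -0.40, adjusted p = 4.53e-05). Clpx, whose protease partner degrades the Alas1 protein, was lower at 0 h (-0.64, adjusted p = 0.00774) and higher at 8 h (0.63, adjusted p = 0.00105).

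Of 16 genes on the hemoprotein list, 5 were higher with 2 lower at 0 h, against 8 with 2 at 8 h. The list also holds Cyb5r3, which is not itself a hemoprotein but acts on one. Cyp2b10, the phenobarbital-type P450, had medians of 5634 in treated and 618 in control livers at 0 h (log2 fold change 2.93, adjusted p = 4.08e-04) and was higher by 2.66 at 8 h (adjusted p = 3.76e-05). Cyp3a13 was higher by 0.89 and 0.69 and Cyp2c29 by 0.82 and 0.71 at 0 and 8 h, whereas Cyb5r3, the reductase of cytochrome b5, was lower (-0.68 and -0.71). Among 14 heme sensors and regulators of Alas1 or Hmox1, 6 were higher with 0 lower at 0 h, against 8 with 3 at 8 h. Bach1, the heme-binding repressor of Hmox1, was higher by 0.84 (adjusted p = 0.0115) and 0.85 (adjusted p = 0.00172), and the drug receptor CAR (Nr1i3) by 0.48 and 0.67.

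Among 6 other genes of heme breakdown and bilirubin handling, 1 was higher at 0 h, whereas 3 were higher and 1 was lower at 8 h. The bilirubin conjugate exporter Abcc3 was higher by 0.56 and 0.80, Abcc2 by 0.44 at 8 h and Hmox2 by 0.38 at 8 h, while Blvra was lower at 8 h (-0.18). In heme transport and scavenging 3 of 9 passed at both times, all upward, among them the lysosomal heme carrier Slc48a1 (0.84 at 8 h) and the hemoglobin-haptoglobin receptor Cd163 (0.69 and 0.71). Among 13 iron genes, 5 were higher with 2 lower at 0 h, against 3 with 2 at 8 h, and the 8 h shares of the transport and iron lists were near that of all probes. The iron hormone hepcidin (Hamp) had medians of 15980 in treated and 897 in control livers at 8 h (log2 fold change 3.95, adjusted p = 1.22e-05), and transferrin receptor Tfrc was lower at 0 h (-1.19).

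Among 8 NRF2 targets besides Hmox1, 0 passed at 0 h by limma, whereas 4 passed upward and 0 downward at 8 h (median 0.43). These were Srxn1 (1.77), Osgin1 (1.54), Gclc (0.75) and Gclm (0.48). At 120 h 0 genes of any list passed.

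Cell markers moved with these liver differences. Of the 3 red blood cell markers measured (of 13 listed), 2 were lower at 0 and 8 h, Hba-a1 (-1.65, adjusted p = 0.00365, and -1.18, adjusted p = 0.0419) and Alas2, which is also on the synthesis list. Hba-a1 has a near-identical copy, so its value may come from both genes. Klf1, the third, differed by 0.01 and 0.09. The summed level of the 3 was 654 to 2228 in treated and 2282 to 6214 in control livers at 0 h, and 524 to 2588 and 1300 to 4648 at 8 h in the same order. Uros and Alad are needed by red cell precursors too, and the part of these markers in their lower signal was not tested. Kupffer cell and macrophage markers were higher in 7 and 8 of 10 and lower in 0 of 10 at 0 and 8 h, with sums of 4106 to 6699 in treated and 2713 to 5381 in control livers at 0 h. Of 8 hepatocyte markers, 2 passed upward and 2 downward at 0 h, against 0 and 2 at 8 h, with overlapping sums (87150 to 94890 in treated and 83950 to 95420 in control livers at 0 h). Such sums are carried by the brightest probes, here those of Apoa2 (21030 to 24510 in control livers at 0 h), Ttr (21030 to 21950) and Apoa1 (17380 to 20560). Their overlap does not show that hepatocyte content was equal.

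The lists gave fewer calls in the brain regions. At 0 h Hba-a1 was lower, as Uros was, in AMY (-1.12 with an adjusted p of 0.0309) and in NAC (-1.12 with an adjusted p of 0.0415), and it differed by -0.88 in PFC (adjusted p = 0.202). Its part in the Uros difference was not tested. At 8 h Hba-a1 was lower in NAC (-1.14 with an adjusted p of 0.0202) and in PFC (-1.15 with an adjusted p of 0.0384). The oxidative stress gene Srxn1 was higher in AMY (0.23 at 0 h and 0.35 at 8 h), NAC (0.30 and 0.35) and PFC (0.21 at 8 h). Slc25a38, which brings glycine into the mitochondrion for heme synthesis, was lower at 8 h in AMY (-0.19) and PFC (-0.29). Ppox was lower in NAC at 0 h (-0.13, adjusted p = 0.0447). In NAC at 0 h oligodendrocyte markers were lower in 3 of 9 and thalamic markers higher in 3 of 7, with Slc17a6 at 0.82. The part of these markers in the NAC values was not tested.

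Over time in control liver the breakdown gene Blvrb and the last synthesis gene Fech went opposite ways. Blvrb read 4366 to 5691 at 0 h (median 5313), 4485 to 5672 at 8 h (median 5161) and 2004 to 2810 at 120 h (median 2263). All control livers at 120 h were far below all of those at 0 and 8 h, with a log2 difference of -1.18 ± 0.0683 for 120 against 0 h (adjusted p = 3.39e-12) and -1.18 ± 0.066 for 120 against 8 h (adjusted p = 4.03e-12), and the signal fell by 55.8%. Treated livers at 120 h were at the same low level, 2054 to 2935 (median 2325).

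Fech rose at 120 h on all 3 probes. ILMN_1228534 read 210.2 to 249 at 120 h and 180.7 to 197.5 at 0 h (log2 difference 0.30 ± 0.0442, adjusted p = 8.09e-06), and ILMN_2710731 read 166.3 to 178.7 at 120 h and 136.3 to 154.7 at 0 h (0.23 ± 0.0355, adjusted p = 1.4e-05), both without overlap. ILMN_1229519 was higher by 0.14 ± 0.0531 (adjusted p = 0.0395). Urod rose as well, with 2673 to 3022 at 120 h and 2279 to 2673 at 0 h (0.19 ± 0.0393, adjusted p = 3.34e-04). Cpox was lower (-0.13 ± 0.0449, adjusted p = 0.0229). The calls of Cpox and of ILMN_1229519 were each lost under 2 of 6 alternative settings (adjusted p up to 0.101 and 0.0635). The member probes called were 6 of 10 for 120 against 0 h and 5 of 10 for 120 against 8 h. Of all liver probes 45.5% and 47.9% were called, so the share of members was near that of all probes.

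Between 8 and 0 h 1 of 10 member probes differed in control liver (12.9% of all probes). Alad read 3221 to 3851 at 8 h and 2731 to 3316 at 0 h (0.21 ± 0.0475, adjusted p = 0.00424). That call was lost with all 6 groups in 1 fit (adjusted p = 0.25). Time since the last session and time since the last pyrazole dose cannot be told apart in these controls, and at 8 h neither can the hour of the day.

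**Figure D4:**
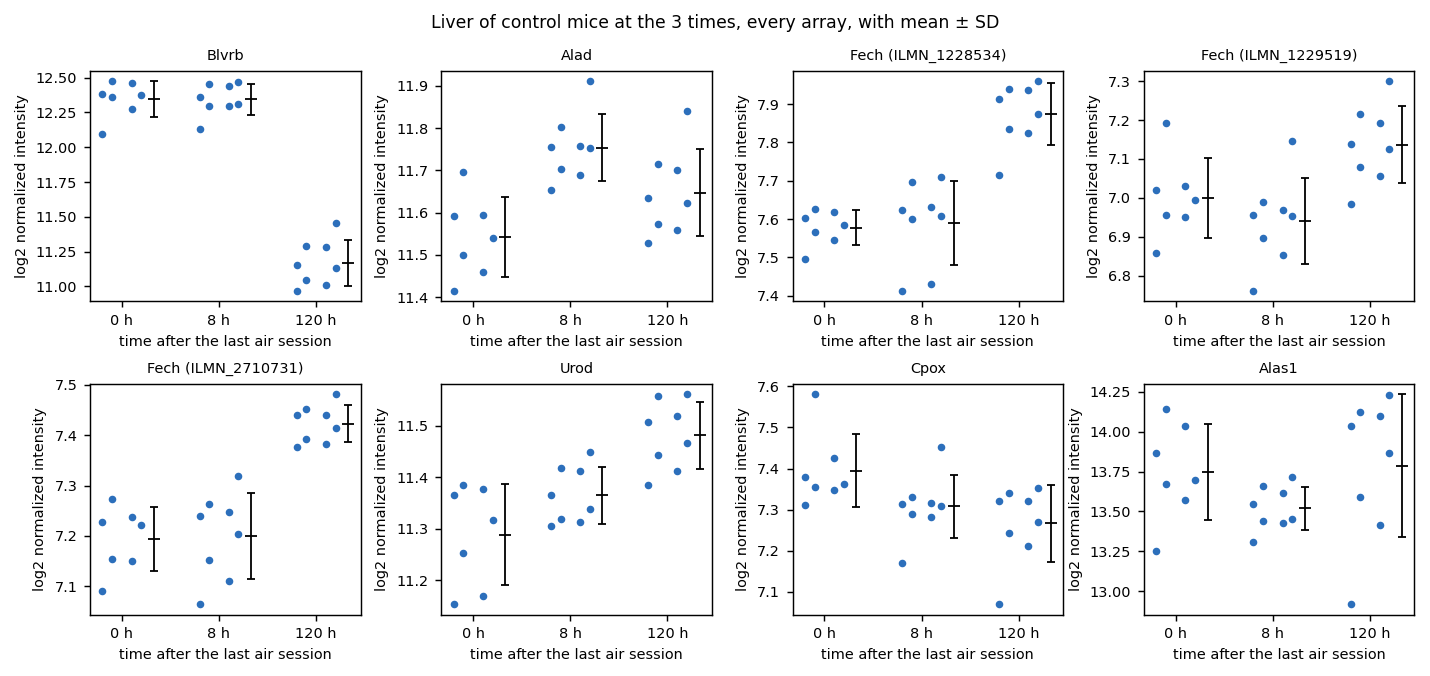
Log2 normalised intensity of 8 member probes in control liver (y axis) at 0, 8 and 120 h after the last air session (x axis), with 1 point per array and mean ± SD. Blvrb at 120 h (2004 to 2810) lies far below 0 and 8 h, Fech and Urod lie above, and Alas1 spreads over the whole range.

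Over the 47 liver arrays the highest Pearson correlations with Blvrb among 7371 genes were those of the glutathione transferase Gstm1 (r = 0.95), the quinone reductase Nqo1 (r = 0.946) and Mgst3 (r = 0.94), given as a description over arrays that share groups. They were chosen for this likeness, so that their own levels over time are no further evidence. Gstm1 read 2810 to 6012 in control liver at 120 h and 16120 to 20800 at 0 h (log2 difference -2.24), and Nqo1 read 126.6 to 172.7 at 120 h and 301.3 to 421 at 0 h (-1.40). At 120 against 0 h 45.5% of all liver probes were called, and on the NRF2 list 6 of 8 genes were lower and 0 higher (median -0.86, against 0.0057 over all probes), with Srxn1 at -2.71 and Gsta2 at -2.78. Of the other genes of heme breakdown and bilirubin handling 5 of 6 were lower. These were Gsta1 (-4.1), Abcc2 (-0.51), Abcc3 (-0.21), Hmox2 (-0.21) and Blvra (-0.20). Slco1b2, a hepatic uptake carrier of bilirubin, was higher by 0.99. Red blood cell markers were higher in 3 of 3 (median 1.12), Alas2 by 1.12 and Hba-a1 by 1.21, and Kupffer cell markers lower in 5 of 10 and higher in 0, a share near that of all probes. The part of these cell markers in the Fech and Blvrb differences was not tested.

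The other members had their own nearest genes over the liver arrays. Alad was closest to the citrate carrier Slc25a1 (r = 0.912), the acyl-CoA binding protein gene Dbi (r = 0.911) and Ociad2 (r = 0.894). Fech was closest to the transporters Abca8a (r = 0.865) and Abca9 (r = 0.86) and to Il1rap (r = 0.846). Uros was closest to Lman2 (r = 0.778), Cpox to the folate enzyme Fpgs (r = 0.742), Urod to Rhot2 (r = 0.748) and Alas1 to the clock-controlled deadenylase gene Noct (r = 0.651). The 2 Uros probes correlated at 0.899 over all liver arrays and at 0.795 within groups. Alad and Uros ILMN_2452383 correlated at 0.689 over all arrays and at 0.188 within groups.

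In the brain regions of control mice the differences of the members over time were small. In AMY and NAC Alad was higher at 120 than at 8 h (0.14, adjusted p = 0.0379, and 0.16, adjusted p = 0.0275), and Blvrb was lower (-0.17, adjusted p = 0.0102, and -0.15, adjusted p = 0.0116). These were 2 of 9 and 2 of 8 member probes, where 11% and 9.29% of all probes were called. In AMY Blvrb read 259.1 to 303 at 120 h and 295.6 to 346.5 at 8 h, ranges that met only at their edges. The NRF2 list was lower in brain too, as it was in liver. At 120 against 8 h 4 of 5 measured genes were lower and 0 higher in each of AMY, NAC and PFC (medians -0.21, -0.29 and -0.22). Of all probes 11%, 9.29% and 23.3% were called there. The list gave the same counts at 120 against 0 h, and a link to Blvrb was not tested. For 120 against 0 h 0 of 9 and 0 of 8 member probes passed in AMY and NAC by limma (11.6% and 5.74% of all probes), and 2 and 1 had an unadjusted p under 0.05 (25.9% and 21.7% of all probes). For 8 against 0 h 0 passed in AMY, NAC and PFC by limma (9.98%, 11% and 3.72% of all probes), and 1, 2 and 1 had an unadjusted p under 0.05 (25.3%, 27.3% and 18.7% of all probes).

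In control PFC 6 of 9 member probes differed between 120 and 0 h (24.6% of all probes) and 3 of 9 between 120 and 8 h (23.3%). Alad was higher at 120 h, with 833.9 to 1071 at 120 h and 690.2 to 929 at 0 h (0.19, adjusted p = 0.00982), and so was Cpox (0.11, adjusted p = 0.00984). Both Uros probes were lower at 120 than at 0 h (-0.20, adjusted p = 0.00174, and -0.14, adjusted p = 0.018). The control PFC samples at 0 h, against which the treated ones were low, had the highest Uros levels of the 3 control groups. On ILMN_2498173, the probe called there, the control medians were 264.8, 245.3 and 238.8 at 0, 8 and 120 h. On ILMN_2452383 they were 347, 317 and 291. The Fech probes ILMN_1228534 and ILMN_2710731 were lower (-0.10, adjusted p = 0.0252, and -0.09, adjusted p = 0.0277), a direction that turned to 0.05 for the second probe with median scaling (adjusted p = 0.224). That scaling also ended the call of ILMN_1228534 (-0.0082, adjusted p = 0.852) and that of Alad (0.059, adjusted p = 0.358). In this contrast thalamic markers were higher in 4 of 7 and lower in 1 (median 0.14), and endothelial markers were lower in 4 of 6 and higher in 1 (median -0.14), and their part in the member differences was not tested.

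Liver and brain differed in the level of nearly every member in control mice. With the 4 tissues normalised together, 9 of 10 member probes were higher in liver than in AMY, 9 of 10 than in NAC and 10 of 10 than in PFC, where 47%, 46.2% and 47.5% of all probes were higher in liver and 93.5%, 93.2% and 93.2% were called either way. Blvrb stood farthest apart, at 1928 to 4546 in liver (median 4106, n = 23) and medians of 282.4 in AMY, 265.6 in NAC and 262.2 in PFC (n = 24 each). This was 11.9-fold over AMY (adjusted p = 3.66e-102), 12.8-fold over NAC and 12.9-fold over PFC, and the 120 h livers, with their low Blvrb, were still above every brain sample.

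Alas1 read 5714 to 13030 in liver (median 8520), against medians of 1676 in AMY, 1572 in NAC and 2010 in PFC, that is 5.26-fold, 5.62-fold and 4.39-fold. Alad was 3.39-fold, 3.4-fold and 3.86-fold and Urod 2.02-fold, 1.83-fold and 1.94-fold higher in liver, in the same order of regions. Cpox was higher by 1.83-fold to 1.88-fold and Fech by 1.63-fold to 2.01-fold on ILMN_1228534 and ILMN_2710731. The third Fech probe, ILMN_1229519, was detected on 1 of 48 arrays from AMY and 2 of 48 from NAC, where its values were near background, and on 37 of 48 from PFC, over which it was 1.49-fold higher in liver.

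Uros was the member with near equal levels. ILMN_2452383 had medians of 314.3 in liver, 268.4 in AMY, 253.1 in NAC and 264.2 in PFC, or 1.14-fold to 1.22-fold higher in liver. Without scaling between arrays it was lower in liver than in AMY (-0.17) and PFC (-0.40). Against NAC it then did not differ by limma (-0.012, adjusted p = 0.79). ILMN_2498173 had medians of 236 in liver, 234.6 in AMY, 224.9 in NAC and 210.6 in PFC, and its difference did not pass against AMY (-0.03, 95% interval -0.09 to 0.02, adjusted p = 0.232) or NAC (0.05, 95% interval -0.0035 to 0.11, adjusted p = 0.0705). It passed against PFC (0.14, adjusted p = 4.16e-06), again with the opposite direction without scaling (-0.44).

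**Figure D5:**
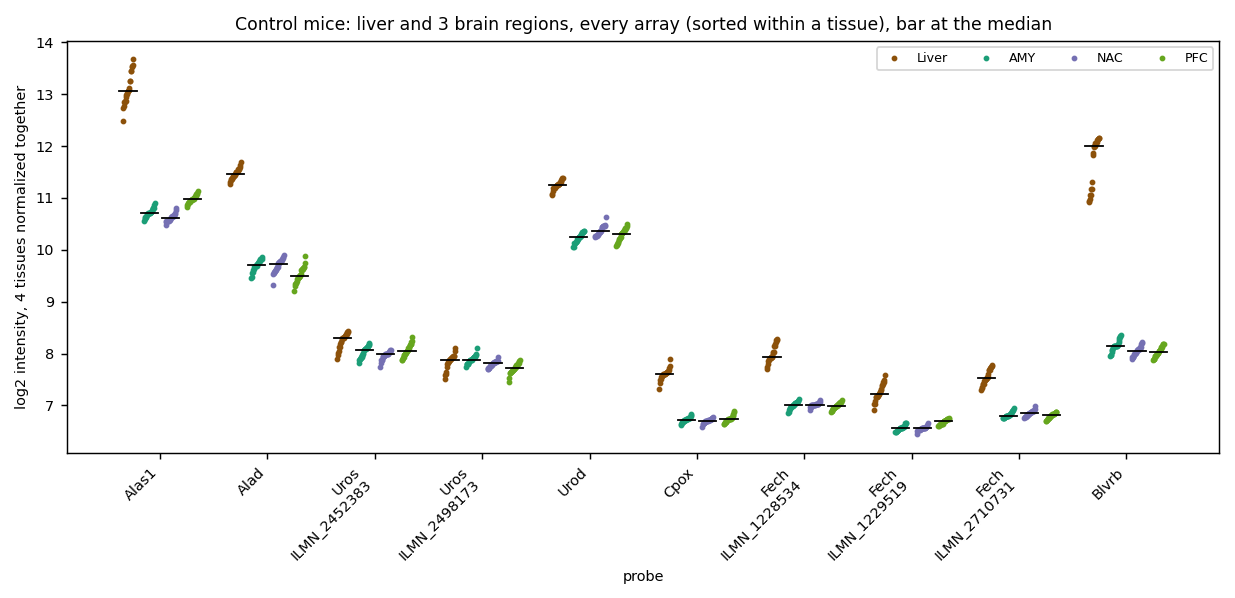
Log2 intensity of the 10 member probes (y axis, 4 tissues normalised together) in control mice by probe and tissue (x axis), with liver in brown, AMY in teal, NAC in violet and PFC in green, 1 point per array sorted within a tissue and a bar at the median. Liver lies above the brain regions for Blvrb, Alas1, Alad, Urod, Cpox and Fech, and the tissues overlap for both Uros probes.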

How the data were processed

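RNA of 191 tissue samples was hybridised to Illumina MouseRef-8 v2 arrays. Per the labels and file headers, the authors deposited 1 table per tissue of probe intensity without normalization, each with a detection p-value, and a series table of log2 values that they had variance stabilised and quantile normalised (lumi, version not given in the sources used here). The heme genes and all gene lists were chosen with earlier results of these data known.

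Per tissue, probes with a detection call (p-value at most 0.05) in over 80% of arrays were kept, log2 transformed and quantile normalised in R 4.3.3 with limma 3.58.1, without background subtraction. Treated and control arrays were compared within each time point, control arrays over time, and effects between times in a fit of all 6 groups. For liver against brain all arrays were normalised together. All limma tests were two-sided, with Benjamini-Hochberg adjustment over the tissue's probes. A log2 fold change carries its SE. The scripts were tested on simulated data. Every member probe is named, and list genes only where called, up to 4 per list with the largest change first. The breakdown list in control liver is given in full. The number of arrays limits the precision. Alternatives were normexp correction (offset 16), median scaling, other filters, array weights, the authors' processed log2 values, replicate blocks and leaving arrays out. The column names of the intensity tables carry no replicate number of the labels, so those blocks were fitted on the processed values. They do carry an animal number shared by the tissues, which was a random block on the intensities for liver against brain. Hmox1 was not analysed here.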

Additional observations from a re-analysis of the deposited data

Results flagged for a closer look

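In groups of 7 or 8 arrays, 14 of 216 combinations of a member probe and a group had 1 array set apart from the rest by Dixon's criterion, where chance gives about 1 in 20. In liver control mice these were the highest Cpox array at 0 h (191.4, next 171.9) and, at 8 h, the lowest Uros array on ILMN_2452383 (223.1, next 248.8) and on ILMN_2498173 (150.3, next 180.1). In PFC they were 3 low Uros arrays on ILMN_2498173, at 195.2 in treated mice at 0 h, 233.2 in control mice at 0 h and 206.8 in control mice at 120 h, and a low Fech array on ILMN_1228534 in control mice at 0 h (135.3). In NAC they were the highest Alas1 array of treated mice at 8 h (1610), the highest Fech arrays on ILMN_1228534 at 8 h (134.6 in treated and 133.3 in control mice) and the highest on ILMN_2710731 in control mice at 0 h (123.1). In AMY they were the lowest Alas1 array of treated mice at 0 h (1633), the highest Cpox array of control mice at 8 h (115.3) and the highest Urod array of control mice at 120 h (1341).

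The treatment effect differed between time points by limma, in a fit of all 6 groups, in 6 cases. From 0 to 8 h these were Uros ILMN_2498173 in PFC (0.30) and Cpox in liver (0.31). From 0 to 120 h in liver they were Uros ILMN_2452383 (0.51), Uros ILMN_2498173 (0.37) and Alad (0.47), and from 8 to 120 h Alad (0.44).

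The effect differed between liver and a brain region in 25 cases, by limma on the 4 tissues normalised together. Liver minus AMY at 0 h gave -0.42 and -0.25 for the Uros probes ILMN_2452383 and ILMN_2498173, -0.33 for Alad, -0.32 for Alas1 and -0.28 for Cpox. Liver minus NAC at 0 h gave -0.38 and -0.28 for Uros, -0.41 for Alad, -0.28 for Alas1 and -0.30 for Cpox. Liver minus PFC at 0 h gave -0.36 and -0.19 for Uros, -0.49 for Alad, -0.28 for Blvrb and -0.31 for Cpox. At 8 h, liver minus AMY gave -0.29 for Uros ILMN_2452383, -0.40 for Alad and 0.13 for Fech ILMN_2710731. Liver minus NAC gave -0.23 and -0.20 for Uros, -0.44 for Alad and 0.12 for Fech ILMN_2710731, and liver minus PFC gave -0.21 on each Uros probe and -0.40 for Alad.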

How the results depend on the processing

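Over 96 called values and 628 refits, 562 kept direction and call, 61 kept the direction but lost the call, and 5 turned. Turned values were Fech ILMN_2710731 in control PFC, 120 minus 0 h, with median scaling (0.047), and, without scaling between arrays, Uros ILMN_2452383 in liver minus AMY (-0.17), NAC (-0.012) and PFC (-0.40) and Uros ILMN_2498173 in liver minus PFC (-0.44); the cause was not tested.

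Of the member probes called, the 4 in liver at 8 h became 2 with median scaling and 2 with no detection filter. With an array left out they became 2 to 4, against 4 to 5 for the 4 in liver at 0 h. The 0 in the brain regions at 8 h became 1 with the authors' processed values. The 1 for the effect at 120 minus 8 h became 2 with the processed values, 2 with median scaling and 0 with no detection filter. In controls, 8 minus 0 h, the 0 in the brain regions became 1 with the processed values and 3 with median scaling, and the 1 in liver became 0 with all 6 groups in 1 fit.

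Same-numbered treated and control arrays correlated at -0.34 to 0.565 and not every pair exceeded 0.1. The means per tissue and time point ran from -0.146 to 0.187. This is another measure than the correlation between whole arrays given above, which was nowhere under 0.944. The correlations of same-numbered arrays do not settle whether such samples share more than a number. With the replicate block on the processed values (by title or by description number), 2 member probes were called in liver at 0 h, both of Uros. There Alad (adjusted p = 0.0593 and 0.0601) and Cpox (0.0619 and 0.054) lost their call. The brain regions had 1 member probe called at 8 h. For the effect at 120 minus 8 h, 0 were called (title number). Blocks by label number on the intensity tables were not run, since their columns carry none. For liver against brain, the animal number in the column names as a random replicate block changed 0 of 53 calls.

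Counts over all probes moved by more than 1.5 times from 488 (AMY), 924 (NAC), 190 (PFC) and 2145 (liver) at 0 h to 854, 1449, 683 and 3629 with all 6 groups in 1 fit. With array weights they were 756, 1597 and 332 in AMY, NAC and PFC at 0 h, and 1108 against 734 in PFC at 8 h. They were 1697 in NAC without the array of lowest correlation in each group, 343 in PFC with the processed values, and with the block 116 in PFC, 1413 in liver (by description) and 1 at 120 h in AMY and in NAC.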
